A study of Homo sapiens with 4 samples.

Results

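Human chromosome 17 held 608 of 14431 ONECUT2 peaks in replicate 1, 393 of 11990 in replicate 2 and 230 of 4297 regions in the list made by an irreproducible discovery rate procedure (IDR list). The members are every peak or region that the deposited lists place on chromosome 17. A contig named for chromosome 17 but not placed in it, gl000205, had 41 peaks in each replicate list and no IDR region, and was left out. The peaks came from chromatin immunoprecipitation and sequencing (ChIP-seq) with a rabbit antibody against ONECUT2 in 22Rv1 cells, an established line of castration-resistant human prostate carcinoma grown in serum. The labels give 2 ChIP libraries and 2 input libraries of this line, and input is sonicated chromatin sequenced without an antibody. Nothing in the labels says that separate cultures were used for the ChIP libraries, so their spread may be technical. No other antibody, cell line or treatment was compared, and a peak is a call over input rather than a proof of direct binding.

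ONECUT2 is a transcription factor of the CUT-homeodomain family that binds DNA through a cut domain and a homeodomain. It is known from liver, pancreas and neuronal development and has been studied in advanced prostate cancer. Chromosome 17 is known as one of the more gene-rich human chromosomes, with the growth factor receptor gene ERBB2 and the HOXB cluster of homeobox genes on its long arm. All positions are in hg19 as the lists give them, counted from 1. No annotation or sequence of this build was used here, so no gene was assigned to a peak and no sequence is shown.

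Peaks were denser on chromosome 17 than on the other 21 autosomes as a whole, in each of the 3 lists. Replicate 1 had 7.50 peaks per Mb on chromosome 17 (95% exact Poisson interval 6.92 to 8.12), against 4.797 on the other autosomes (interval 4.72 to 4.88). Replicate 2 had 4.85 on chromosome 17 (interval 4.38 to 5.35), against 4.04 on the other autosomes (interval 3.96 to 4.11). The IDR list had 2.84 on chromosome 17, against 1.44 on the other autosomes (interval 1.40 to 1.49). Among the 22 autosomes, chromosome 17 took place 3 in replicate 1, place 5 in replicate 2 and place 3 in the IDR list. The ratio to the other autosomes was 1.56 in replicate 1 and 1.20 in replicate 2, or 1.38 ± 0.257 (SD, n = 2), and 1.97 in the IDR list. The size of the excess thus differed between lists, while its direction was the same in the 3 lists. Intervals cover counting error only, and no p is given, since peaks within a library are not independent and the 2 libraries have no other group to be tested against.

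**Figure D1:**
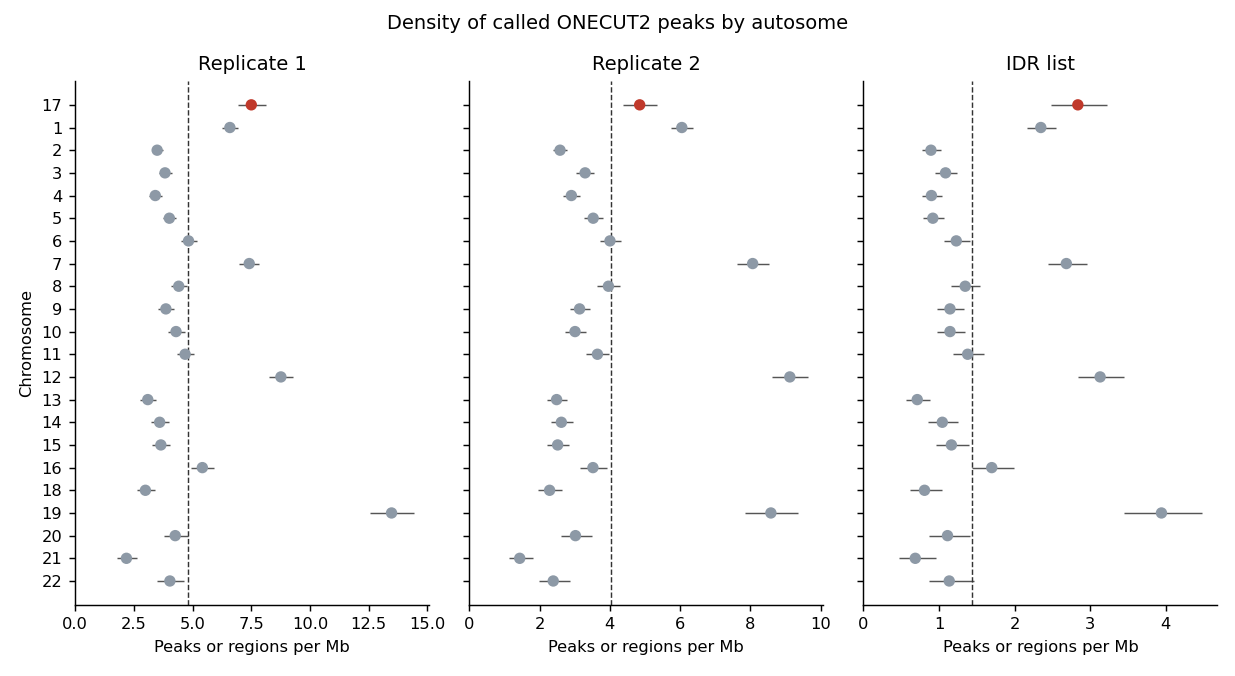
Peaks or IDR regions per Mb on each autosome, with chromosome 17 in red at the top, 95% exact Poisson intervals as lines and the other autosomes as a whole as a dashed line. Chromosome 17 lies to the right of the dashed line in the 3 panels, at 7.50, 4.85 and 2.84 per Mb.

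The replicate lists were also of unequal size on this chromosome. Replicate 1 had 1.55 times as many peaks as replicate 2 on chromosome 17, against 1.19 times on the other autosomes. Only chromosomes 22 (1.69) and 19 (1.57) had a larger ratio among the autosomes, and chromosomes 16 (1.54) and 21 (1.52) came next. The IDR list held 58.5 regions for every 100 replicate 2 peaks on chromosome 17, against 35.7 on the other autosomes, and no autosome had a higher ratio.

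The chromosome was split into arms at its longest stretch without a peak in any list, from 21220337 to 25262865 (4.04 Mb), which holds the centromere in this build. On the short arm, replicate 1 had 187 peaks, or 8.81 per Mb (interval 7.59 to 10.2), and on the long arm 421, or 7.55 per Mb (interval 6.84 to 8.30). Replicate 2 had 104 peaks on the short arm, or 4.90 per Mb (interval 4.00 to 5.94), and 289 on the long arm, or 5.18 per Mb (interval 4.599 to 5.81). The IDR list had 64 regions on the short arm, or 3.02 per Mb (interval 2.32 to 3.85), and 166 on the long arm, or 2.98 per Mb (interval 2.54 to 3.46). The intervals of the arms overlap in each list, and the direction of the difference was not the same in the replicates. The ratio of the short to the long arm was 1.06 ± 0.157 (SD, n = 2), so the arms did not differ by more than the spread between replicates.

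The share of strong peaks was higher on the short arm in both replicates, by less than their intervals can separate. MACS2 gives each peak a fold enrichment, the ChIP pileup at the summit over a local background from input, and 6 or more is called strong here. In replicate 1, 22 of 187 short-arm peaks (11.8%, exact Clopper-Pearson interval 7.52% to 17.3%) and 43 of 421 long-arm peaks (10.2%, interval 7.49% to 13.5%) were strong, against 7.46% of all peaks of that list. In replicate 2, 17 of 104 short-arm peaks (16.3%, interval 9.82% to 24.9%) and 30 of 289 long-arm peaks (10.4%, interval 7.11% to 14.5%) were strong, against 7.08% of all peaks of that list. The density of strong peaks on the short arm was 1.42 times that on the long arm, as a mean of the replicates. Median background was close between the arms, at 12.5 fragments on the short arm and 12.1 on the long arm in replicate 1, and 12.6 and 12.1 in replicate 2.

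Peaks were found along most of the chromosome, in uneven numbers. The 82 windows of 1 Mb on chromosome 17 held a median of 6 replicate 1 peaks, against 3 in the 2807 windows of the other autosomes. In replicate 2 the medians were 3 on chromosome 17 and 2 on the other autosomes, and in the IDR list 2 and 1. Windows with 10 or more replicate 1 peaks made up 30.5% on chromosome 17 and 15.3% on the other autosomes. Windows with no replicate 1 peak made up 9.76% and 23.01%, in the same order. The 8 fullest windows of chromosome 17 held 30.3% of its replicate 1 peaks, whereas the 281 fullest of 2807 windows on the other autosomes held 36.9% of theirs. The excess was thus seen in the median window as well. The variance of the window counts over their mean was 7.07 on chromosome 17 and 6.66 on the other autosomes in replicate 1, 4.72 and 6.71 in replicate 2, and 3.38 and 2.90 in the IDR list, so the lists did not show 1 direction in how clustered the peaks were.

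The densest window lay on the short arm from 7 to 8 Mb. It had 46 peaks in replicate 1, 26 in replicate 2 and 15 IDR regions. By the summed count of the replicates it took place 6 among the 2889 autosomal windows, and by IDR regions it took place 2. Its peaks ran from 7146162 to 7971787 in replicate 1. The peaks of the window had a median fold enrichment of 2.88 in replicate 1 and 3.20 in replicate 2, against 3.10 and 3.16 on the whole chromosome. Of them 2 and 1 were strong, against 10.7% and 11.96% on the chromosome and 7.46% and 7.08% of all peaks. In replicate 1 22 of the 46 and in replicate 2 22 of the 26 overlapped a peak of the other list. Chromosome 17 as a whole had 49.5% and 83.5% such peaks, and the whole lists 51.1% and 64.5%. The window's highest peak, from 7760071 to 7761834, is among the 12 strongest pairs described further on.

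The next densest windows lay mainly on the long arm. From 79 to 80 Mb there were 28 peaks in replicate 1, 14 in replicate 2 and 10 IDR regions, and from 80 to 81 Mb there were 19, 13 and 8, in the same order of lists. From 46 to 47 Mb there were 23 peaks in replicate 1, 14 in replicate 2 and 11 IDR regions. From 56 to 57 Mb there were 15 peaks in replicate 1 and 16 in replicate 2, with 7 IDR regions, the one among these windows where replicate 2 had more. The remaining one, from 8 to 9 Mb, adjoins the densest window and had 21, 9 and 9. Median background in these windows differed, from 6.59 fragments in the window from 56 to 57 Mb to 15.1 in that from 80 to 81 Mb (replicate 1). These 5 windows held 5 strong replicate 1 peaks in all their 106. Strong peaks made up 10.7% of replicate 1 peaks on chromosome 17 and 7.46% of that whole list. In replicate 2 these windows held 1 strong peak from 79 to 80 Mb and 1 from 80 to 81 Mb. They held 2 from 46 to 47 Mb, 2 from 56 to 57 Mb and 0 from 8 to 9 Mb. The replicate 2 shares were 11.96% on chromosome 17 and 7.08% of that whole list. No window of the chromosome held more than 3 strong peaks in replicate 1 or 2 in replicate 2. The 65 strong replicate 1 peaks were spread over 42 windows.

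**Figure D2:**
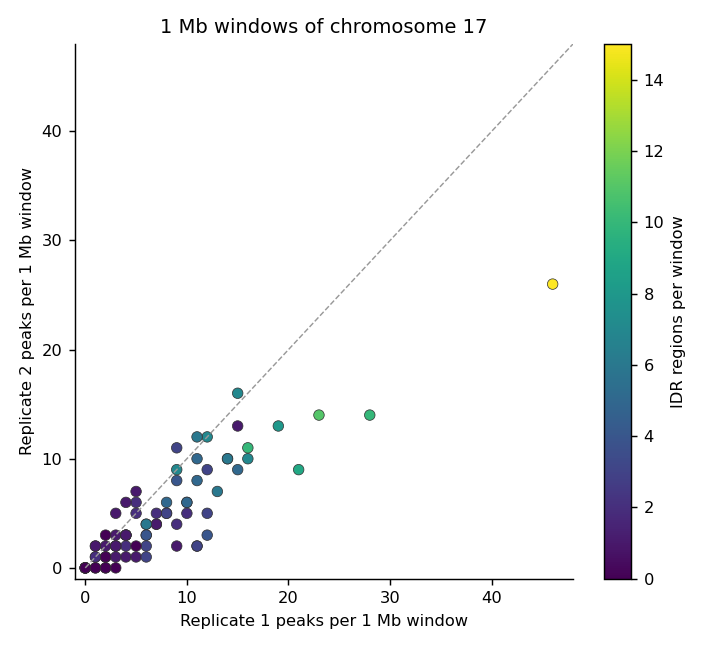
Peaks per 1 Mb window of chromosome 17 in replicate 1 (x axis) and replicate 2 (y axis), with the number of IDR regions as colour and equality as a dashed line. The window with 46 and 26 peaks stands apart, and 57 of the 82 windows had more peaks in replicate 1.

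The replicates ranked the windows alike. Over the 82 windows Spearman's rho of the counts was 0.867 between the replicates, 0.838 between replicate 1 and the IDR list and 0.794 between replicate 2 and the IDR list. Over the 2807 windows of the other autosomes the rho between the replicates was 0.876. These values are descriptions, since the windows share libraries and the lists share an input background. That background was compared at overlapping pairs across all chromosomes with the same summit position and a value above the smallest of each list. Replicate 2 over replicate 1 stood within 0.1% of the ratio of the smallest values, 1.11, at 45 of 45 such pairs. More peaks were counted in replicate 1 in 57 windows and in replicate 2 in 10, and 15 were equal. No list had a peak in 7 windows. Besides the stretch around the centromere, the longest runs without a peak in any list were 50498832 to 53045151 (2.55 Mb) and 10600984 to 12893360 (2.29 Mb).

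Neighbouring calls lay close together. The median distance between neighbouring summits was 38.3 kb on chromosome 17 and 46.7 kb on the other autosomes in replicate 1, and 53.6 kb and 54.4 kb in replicate 2. In the IDR list it was 118 kb on chromosome 17, against 225 kb on the other autosomes. A neighbour within 50 kb was found for 76.6% of replicate 1 peaks on chromosome 17 (interval 73.1% to 80.0%), against 74.1% on the other autosomes. For IDR regions these shares were 45.7% (interval 39.1% to 52.3%) and 33.1%. The difference from the other autosomes was therefore small for replicate 1 peaks and larger for IDR regions, the sparsest of the 3 lists. Spacing depends on density, so these values are not independent of the density ratios given above, 1.56 in replicate 1 and 1.97 in the IDR list.

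The strongest site of the chromosome lay on the long arm at 37616097 to 37619506. The rule took the 12 overlapping peak pairs of highest mean fold enrichment, and their folds are given as a description. Where several replicate 1 peaks overlapped 1 replicate 2 peak, only the pair of highest mean fold was kept for this ranking, which left 291 pairs. At this site replicate 1 had 342 ChIP fragments (background 11.2) and replicate 2 had 324 (background 12.3), with fold enrichments of 28.2 and 24.4. It ranked 4 of all autosomal peaks by fold enrichment in replicate 1 and 2 in replicate 2. Both replicates thus put it near the top of the genome. A second strong pair, at 37606606 to 37607911, had its summit only 10.1 kb away in replicate 1, with fold enrichments of 16.5 and 10.8 (13.7 ± 4.04, SD, n = 2). That pair had the widest spread between replicates of the 12, with 200 fragments in replicate 1 and 168 in replicate 2.

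On the short arm, 5 of the 12 pairs lay between 4 and 8 Mb, against 39 of all 291 pairs. Of the 54 pairs with a mean fold enrichment of 6 or more, 8 lay there. The pair at 4842735 to 4844357 had fold enrichments of 21.2 in replicate 1 and 16.5 in replicate 2 (18.9 ± 3.35, SD, n = 2), with 296 and 254 fragments. The pair at 7760071 to 7761834 had 18.8 and 13.2 (15.99 ± 3.95, SD, n = 2), with 264 and 215 fragments. The pair at 6948401 to 6949903 went the other way, with 14.8 in replicate 1 and 16.3 in replicate 2 (15.6 ± 1.09, SD, n = 2). It had fewer fragments, 133 and 162, over a low background of 8.06 and 8.98. The pair at 4166148 to 4168265 had 13.9 and 10.7 (12.3 ± 2.23, SD, n = 2). The fifth, at 5083847 to 5087332, had 12.1 and 9.38 (10.8 ± 1.95, SD, n = 2) with 72 and 61 fragments, over a background near the lowest of the lists at 5.01 and 5.61.

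Of the other 5 pairs, 3 lay on the short arm. They began at 2414610, 16255127 and 19545403, with mean fold enrichments of 11.4 ± 2.26, 10.98 ± 1.31 and 10.8 ± 0.757 in this order (SD, n = 2 each). The remaining 2 lay on the long arm, at 53045219 to 53046903 with 15.2 ± 2.40 and at 45265012 to 45268706 with 12.97 ± 1.04 (SD, n = 2 each). The first of these marks the end of the peakless run from 50498832. The short arm held 8 of these 12 pairs, which were picked by fold enrichment, against 83 of all 291 pairs. It makes up 27.6% of the summed length of the arms. Among the 54 of the 291 pairs with a mean fold enrichment of 6 or more, 20 lay on the short arm and 34 on the long arm. Fold enrichment was higher in replicate 1 in 10 of the 12 pairs, against 227 of all 291. Each of the 12 overlapped an IDR region, against 157 of all 291. The summits of the 12 pairs lay at most 104 bp apart. The next pair below the 12 had a mean fold enrichment of 10.3, against 10.8 for the last of them.

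**Figure D3:**
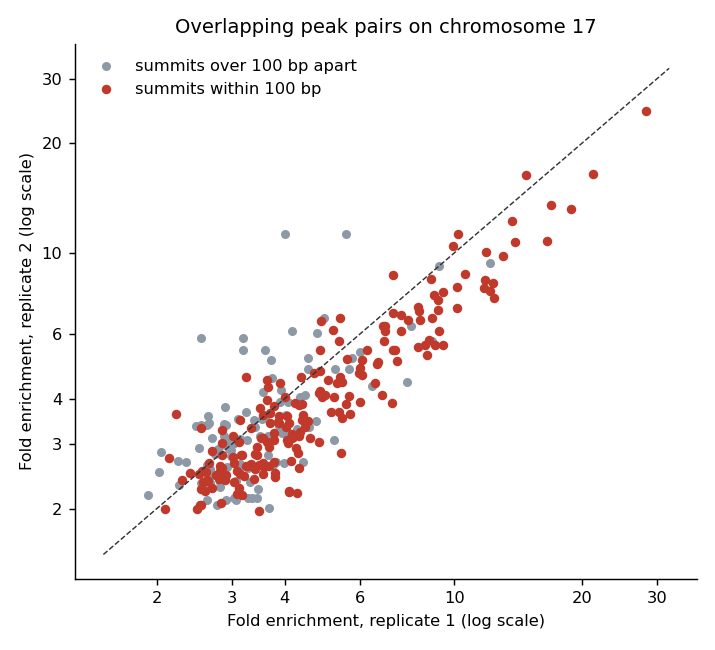
Fold enrichment of overlapping peak pairs on chromosome 17 in replicate 1 (x axis) and replicate 2 (y axis), on log scales, in red where summits lay within 100 bp. Most red points lie below the dashed line of equality, 162 of 193, and the point at 28.2 and 24.4 is the strongest site.

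Across all 301 overlapping pairs, each replicate 1 peak set against the replicate 2 peak of nearest summit, the rank correlation of fold enrichment was 0.794 on chromosome 17, against 0.739 over the 6826 pairs of the other autosomes. These are descriptions without a p, since pairs share their libraries and an input background. For the background of the 301 pairs it was 0.893. Some replicate 1 peaks shared a partner, which is why these pairs outnumber the 291 ranked above. Summits lay a median of 64 bp apart on chromosome 17 and 79.5 bp apart on the other autosomes. They lay within 100 bp in 193 pairs (64.1%), against 58.1% on the other autosomes. In these 193 pairs the rank correlation of fold was 0.885. Fold enrichment was higher in replicate 1 in 162 of them (83.9%), against 73.9% on the other autosomes. As log2 of replicate 2 over replicate 1, the median difference in fold was -0.28 on chromosome 17 and -0.20 on the other autosomes. For fragments it was -0.15 and -0.06, in the same order. The shift toward replicate 1 was thus seen in fragment numbers and in fold, which are not separate observations. Fold is computed from the fragments, over backgrounds that stood at a fixed ratio where summits coincided. Fragment numbers were not adjusted here for read totals.

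The pairs that differed most were chosen among the 92 with summits within 100 bp and a mean fold enrichment of 4 or more. Of these, 78 were higher in replicate 1 and 14 in replicate 2. The largest difference was at 80477011 to 80477606, with fold enrichments of 5.41 in replicate 1 and 2.84 in replicate 2. There the fragments were close, 66 and 58, while the background was 11.4 in replicate 1 and 19.8 in replicate 2. The summits of this pair lay 86 bp apart, so these backgrounds are not values of 1 position. At 57784377 to 57785468 the folds were 7.16 and 3.90, and here the fragments differed, 105 against 60, over backgrounds of 13.8 and 14.6. At 65713669 to 65715128 the folds were 9.42 and 5.59. In the other direction the differences were smaller. The largest was at 80594266 to 80594996, with folds of 4.87 in replicate 1 and 6.52 in replicate 2, from 38 and 56 fragments.

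How far the lists overlapped depended on which list was asked. A peak counted as shared when it had at least 1 bp in common with a peak of the other replicate. In replicate 1, 301 of 608 chromosome 17 peaks were shared (49.5%, interval 45.5% to 53.6%), against 51.1% of all peaks of that list and 50.9% on the other autosomes. In replicate 2, 328 of 393 were shared (83.5%, interval 79.4% to 87.0%), against 64.5% of all peaks and 63.4% on the other autosomes (interval 62.5% to 64.3%). With stricter overlap rules the replicate 1 share was above that of the other autosomes, 34.9% against 32.1% when each peak had to cover 50% of the other. The replicate 2 share of 83.5% was the highest of the 22 autosomes, whereas chromosome 17 took place 12 in replicate 1. Chromosomes 19 (80.5%, interval 76.8% to 83.8%) and 16 (79.2%, interval 74.3% to 83.5%) came next in replicate 2, with intervals overlapping that of chromosome 17. The lowest replicate 2 shares were on chromosomes 7 (49.6%) and 12 (53.1%). The list sizes differed between these chromosomes too. Replicate 1 had 1.55 times as many peaks as replicate 2 on chromosome 17, 1.57 times on 19 and 1.54 times on 16. On chromosomes 7 and 12 it had 0.919 and 0.961 times as many. Chromosome 22 had the largest ratio, 1.69, with a replicate 2 share of 75.4%. The part of list size in these shares was not tested. With these shares, the unshared peaks of chromosome 17 were 307 in replicate 1 and 65 in replicate 2.

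The background under the peaks went along with this. Median background on chromosome 17 was 12.3 fragments in replicate 1 and 12.4 in replicate 2, against 10.2 and 7.32 on the other autosomes. It was at least as high on chromosomes 16 (12.5 and 12.4) and 22 (12.5 and 13.2). In replicate 2 only 23.7% of chromosome 17 peaks lay over a background under 8 fragments, against 53.3% on the other autosomes. Within that class 64.5% of chromosome 17 peaks (interval 53.9% to 74.2%) and 44.8% of the others (interval 43.5% to 46.0%) were shared. From 8 to 12 fragments the shares were 79.6% on chromosome 17 (interval 70.3% to 87.1%) and 72.2% on the others. From 12 to 16 they were 93.4% and 89.3%, and at 16 or more 94.8% and 93.5%. With the other autosomes weighted to the background classes of chromosome 17, their share became 75.5%, against 83.5% on chromosome 17. In replicate 1 the same weighting gave 49.3%, against 49.5% on chromosome 17.

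**Figure D4:**
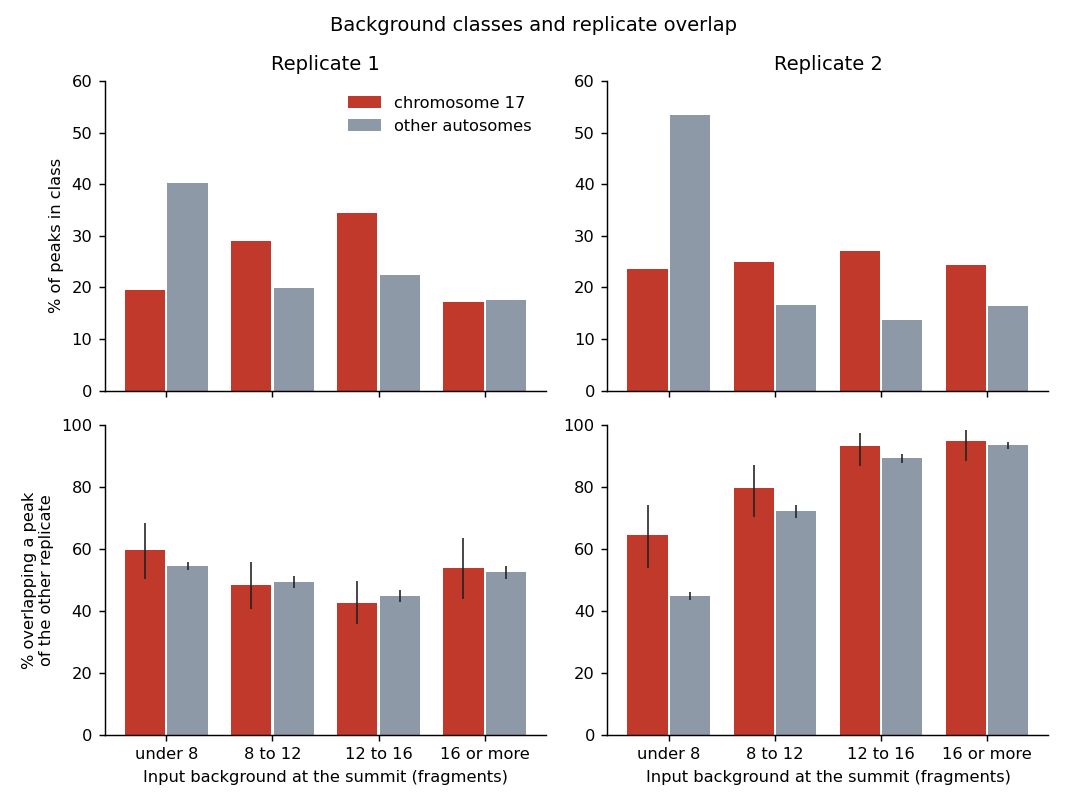
Peaks by class of input background at the summit, in fragments, for chromosome 17 (red) and the other autosomes (grey). The upper panels give the percent of peaks in each class, and the lower ones the percent shared with the other replicate, with 95% exact intervals. In replicate 2 the class under 8 fragments holds 23.7% of chromosome 17 peaks and 53.3% of the others.

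Nearly all high peaks were shared, while sharing of lower ones did not follow height in the same way in the 2 lists. On chromosome 17, 64 of 65 strong replicate 1 peaks and 47 of 47 strong replicate 2 peaks were shared. On the other autosomes 99.9% and 99.4% of strong peaks were shared, in the same order, so this was general. From a fold enrichment of 4 to 6, 93.7% of replicate 1 peaks were shared on chromosome 17 (interval 85.8% to 97.9%), against 82.5% on the other autosomes (interval 80.9% to 84.1%). In replicate 2 the shares in that class were 96.6% (interval 88.1% to 99.6%) and 72.6% (interval 70.6% to 74.6%). From 3 to 4 they were 48.9% and 49.8% in replicate 1, and 72.3% and 46.6% in replicate 2. Below 2.5, replicate 1 had fewer shared peaks on chromosome 17, 14.0% (interval 7.66% to 22.7%), against 23.8% on the other autosomes. In replicate 2 the share below a fold enrichment of 4 was higher the lower the class, with 80.0% on chromosome 17 from 2.5 to 3 and 86.8% below 2.5, against 69.3% and 81.5% on the other autosomes.

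The one strong peak without a partner was in replicate 1 at 18966896 to 18967308, with a fold enrichment of 6.88 from 36 fragments over the smallest background of the list, 4.37. The next highest unshared replicate 1 peaks were at 19015262 to 19015449, with 5.89, and at 17494576 to 17495019, with 4.53. The 3 highest unshared peaks of replicate 1 thus lay within a short part of the short arm. In replicate 2 the highest unshared peaks had fold enrichments of 4.55, 4.12 and 3.98 and lay on the long arm, from 57914706, 28440209 and 28071664. Unshared peaks were narrow in both lists, with median widths of 260 bp in replicate 1 and 215 bp in replicate 2, against 622 bp and 355.5 bp for shared ones.

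Chromosome 17 had a larger share of strong peaks than the other autosomes. In replicate 1, 65 of 608 were strong (10.7%, interval 8.35% to 13.4%), against 7.23% on the other autosomes (interval 6.80% to 7.68%). In replicate 2, 47 of 393 were strong (11.96%, interval 8.92% to 15.6%), against 6.83% (interval 6.37% to 7.31%). These shares took place 1 and place 2 among the 22 autosomes. Chromosome 15 came next in replicate 1 (9.92%), and chromosome 22 was first in replicate 2 (12.3%). The median fold enrichment was nonetheless slightly lower on chromosome 17, at 3.10 against 3.28 in replicate 1 and 3.16 against 3.41 in replicate 2. A threshold of 4 in place of 6 removed the difference in replicate 1, with 23.7% on chromosome 17 and 23.8% on the other autosomes, and left 26.7% and 24.9% in replicate 2. The last strong peak of replicate 1 had a fold enrichment of 6.02 and the first one below it 5.998, and in replicate 2 they had 6.06 and 5.87. The weighting to background classes left the comparison at 10.7% on chromosome 17 against 6.77% in replicate 1 and 11.96% against 7.03% in replicate 2.

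In fragments the chromosome 17 peaks were also higher. The median at the summit was 39 fragments in replicate 1 and 38 in replicate 2, against 34 and 29 on the other autosomes. Peaks with at least 100 fragments made up 7.07% on chromosome 17 in replicate 1 and 8.14% in replicate 2, against 4.01% and 3.81% on the other autosomes. Their higher background, given above, stands beside these values, and its part in them was not tested.

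Replicate peaks were wider on chromosome 17. The median width was 358.5 bp (quartiles 235.75 and 658.25) in replicate 1, against 315 bp (quartiles 221 and 547) on the other autosomes. In replicate 2 it was 324 bp (quartiles 223 and 617), against 292 bp (quartiles 212 and 489.25). The ratio was 1.12 ± 0.0202 (SD, n = 2), and chromosome 17 took place 1 and place 3 among the autosomes. Of the replicate 1 peaks 11.2% were 1000 bp or wider (interval 8.79% to 14.0%), against 9.44% on the other autosomes, and of the replicate 2 peaks 11.7% (interval 8.70% to 15.3%), against 7.62%. IDR regions went the other way, with a median of 1660 bp on chromosome 17 against 1779 bp on the other autosomes.

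The widest peaks were the same 3 sites in both replicates, and all 3 are among the 12 strongest pairs. The site from 45265012 was 3695 bp wide in replicate 1 and 3640 bp in replicate 2. The site from 5083847 was 3486 and 3253 bp wide, with 72 and 61 fragments at its summit. The strongest site, from 37616097, was 3410 and 3000 bp wide. The fragments at the site from 5083847 were fewer than at the other 2 sites but above the chromosome 17 medians of 39 and 38.

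The IDR list had a peak of both replicates in 148 of its 230 chromosome 17 regions (64.3%, interval 57.8% to 70.5%), against 63.3% of all IDR regions and 63.0% on the other autosomes. Only a replicate 1 peak was found in 38 regions, and only a replicate 2 peak in 3. Neither list had a peak in 41 regions (17.8%, interval 13.1% to 23.4%), against 18.4% on the other autosomes. The makeup of the list on chromosome 17 was therefore close to that elsewhere, within these intervals. Peaks in both lists were found at 55 of the 58 regions of highest signal (94.8%) and at 27 of the 58 of lowest signal (46.6%). The region without any replicate peak that had the highest signal lay from 35291948 to 35293665, with a signal of 262 and rank 915.

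From the side of the replicate lists, more chromosome 17 peaks fell in the IDR list than elsewhere. In replicate 1, 254 of 608 did (41.8%, interval 37.8% to 45.8%), against 32.8% of all peaks and 33.1% on the other autosomes. In replicate 2, 192 of 393 did (48.9%, interval 43.8% to 53.9%), against 31.4% of all peaks and 31.3% on the other autosomes. Both shares were the highest of the 22 autosomes, with chromosome 21 next in replicate 1 (38.1%) and chromosome 15 next in replicate 2 (44.4%). The shares in the IDR list varied with background. Under 8 fragments, 25.2% of replicate 1 peaks on chromosome 17 were in the list, against 17.9% on the other autosomes, and from 8 to 12 fragments 47.2%, against 34.1%. From 12 to 16 the shares were 43.1% on chromosome 17 and 41.4% on the others, and at 16 or more chromosome 17 had the lower share, 49.0% against 55.8%. Within classes, the larger differences in replicate 1 were thus those under 12 fragments. In replicate 2 the share at 16 or more was likewise no higher, at 64.6% against 65.7%. The makeup by class differed as well. Under 8 fragments, where the shares in the list were lowest, lay 19.6% of replicate 1 peaks on chromosome 17, against 40.2% on the other autosomes. In replicate 2 that class held 23.7% and 53.3%, in the same order. The part of this makeup in the higher shares of chromosome 17 was not tested.

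By IDR signal, a value whose scale is not named, 8 chromosome 17 regions were among the 100 highest of the whole list, and 25 among the 500 highest. Chromosome 17 held 5.35% of all IDR regions, so its share was 8% of the first set and 5% of the second. The 8 regions of highest signal on the chromosome had signals from 732 to 1159. They were led by the strongest site, where the region from 37617042 to 37618552 had a signal of 1159 and rank 14. The region from 4843163 to 4844120 had 1036, that from 45265401 to 45267542 had 1005 and that from 7760397 to 7761473 had 973, and these 3 also belong to the 12 strongest pairs. The regions from 16255391 to 16256459 and from 4166763 to 4167851 belong to them too, with signals of 843 and 732. The other 2 were not among the 12: the region from 77783248 to 77784643 had 846 and a fold enrichment of 10.1 ± 2.37 (SD, n = 2), and that from 79988637 to 79990081 had 825 and 9.22 ± 0.00865 (SD, n = 2). The first of these had the highest background of the 8, at 20.4 and 23.4 fragments.

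**Figure D5:**
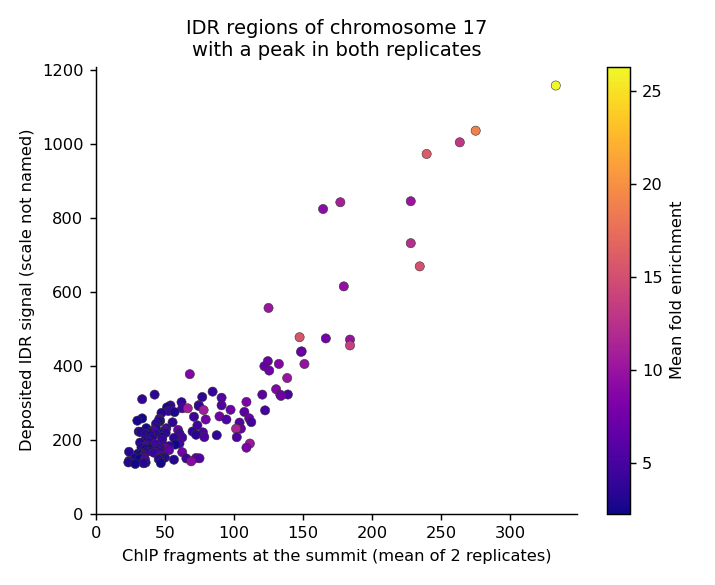
Deposited IDR signal (y axis) against ChIP fragments at the summit as a mean of the replicates (x axis) for the 148 chromosome 17 regions with a peak in both replicates, coloured by mean fold enrichment. Signal rises with fragments up to the strongest site at 1159.

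Over these 148 regions IDR signal had a rank correlation of 0.715 with fragments, 0.574 with fold enrichment and 0.415 with background. It ran against the width of the region, at -0.344. These are descriptions over regions of the same libraries. The 3 of the 291 pairs with the highest mean fold enrichment outside the IDR list, chosen after their values were seen, began at 41438185, 18585542 and 13893375, with 7.13 ± 0.531, 6.82 ± 0.980 and 6.59 ± 0.413 in this order (SD, n = 2 each). Their backgrounds in replicate 1 were 5.13, 5.26 and 4.37 fragments. Among the 291 pairs, of the 54 with a mean fold enrichment of 6 or more, 48 were in the list, against 157 of all 291. All 20 replicate 1 peaks and all 11 replicate 2 peaks at a fold enrichment of 10 or more on chromosome 17 were in it. On the other autosomes 96.9% of such replicate 1 peaks and 95.8% of such replicate 2 peaks were in it, so this was general.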

How the data were processed

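Libraries were 2 ONECUT2 ChIP and 2 input samples of 22Rv1, grouped by the titles in the labels. Tools in the submitters' processing notes are MACS2 2.1.1, BWA 0.7.13-r1126 and Picard, with the build hg19. Per the file headers, the replicate lists are MACS2 peaks. Per the labels, each sets 1 ChIP library against input. The authors' values for a peak are a fold enrichment (a ratio), a −log10 p-value, a −log10 q-value and a score, as deposited. The IDR list has a deposited signal and a deposited score. Read totals and calling settings are not given in the sources used here.

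Fragments and background at each summit were recovered from the deposited fold and −log10 p, as fold = (fragments + 1)/(background + 1) and an upper Poisson tail. A whole number of fragments was found for 100% of peaks within 0.001. On simulated chromosome 17 peaks the step returned the exact number in 100% of 608 and 393 peaks, and the overlap step found 304 of 304 and 197 of 197 planted overlaps. Median fragments over whole lists, 34 and 30, limit the precision of each fold. Chromosome lengths were taken to the last peak end of any list. Windows of 1 Mb start at 0, and peaks were placed by midpoint. Intervals are exact at 95% (scipy 1.17.1). Neighbouring peaks are not independent, and reads carried no molecular identifiers.

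The named regions are the 12 pairs of highest mean fold, the 8 IDR regions of highest signal, the 6 densest windows, the 3 widest and the 3 highest unshared peaks of each replicate, the 3 most different pairs each way and the 3 longest peakless stretches. Members, lists and rules were chosen with earlier results of these data known. Genes, promoters and sequences were not analysed, as no hg19 annotation was used here. Alternatives covered thresholds, overlap rules, the chromosomes set against, lengths, window grids and single replicates.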

Additional observations from a re-analysis of the deposited data

How the results depend on the processing

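Over 51 alternative values of the main results, 28 stayed within the replicate spread (1 SD) or the 95% interval of the result, or within 1.5 times for a count. 22 moved further and 1 turned. Several of these moves had a direction fixed by the rule. A stricter overlap can only lower a share, and a q cut can only lower a window count. A lower fold threshold can only raise the share of strong peaks, and a higher one can only lower it. The ratio of that share to the other autosomes stayed within its interval at a threshold of 10 (1.35 and 1.46), but not at 4, as given below. The 2 overlap rules that turned the replicate 1 comparison, given below, were judged by their shares and so count as moved. For the density, width and arm ratios a single replicate always lies within 1 SD of the mean of 2, so those alternatives could not move. The density ratio to the other autosomes (1.38) ranged from 1.20 to 1.56 without 1 replicate. It became 1.97 in the IDR list, 2.21 for strong peaks (a fold of 6 or more) and 1.65 without chromosomes 7, 12 and 1 among the others. The shares of shared peaks (49.5% and 83.5%) became 34.9% and 53.9% when each peak had to cover 50% of the other. They became 31.7% and 49.1% for summits within 100 bp. Among strong peaks they became 98.5% and 100%, against 99.9% and 99.4% on the other autosomes. In replicate 1 the first 2 rules turned the comparison with the other autosomes, at 34.9% against 32.1% and 31.7% against 29.6%, from 49.5% against 50.9% (a ratio of 0.972 that became 1.09 and 1.07). The share of IDR regions with both peaks became 57.4% when 50% of a peak had to lie inside. The shares of strong peaks (10.7% and 11.96%) became 23.7% and 26.7% at a threshold of 4, 3.29% and 2.80% at 10, and 7.07% and 8.14% for 100 or more fragments. Their ratio to the other autosomes (1.48 and 1.75) turned to 0.995 in replicate 1 and became 1.07 in replicate 2 at a threshold of 4. Weighting the other autosomes to the background classes, chosen after seeing the data, left the ratio of shared replicate 2 peaks at 1.11, against 1.32 without weighting. The width ratio (1.12) ranged from 1.11 to 1.14 without 1 replicate and became 1.08 at −log10 q of at least 5. The ratio of the arms (1.06) ranged from 0.946 to 1.17 without 1 replicate and became 1.42 for strong peaks. The densest window stayed at 7 Mb (36 peaks as a mean of the replicates, 26 to 46 without 1 replicate), with 15 in the IDR list and 23.5 at −log10 q of at least 5. The median fold of the 12 named pairs (13.3) ranged from 11.8 to 14.3 without 1 replicate. The causes were not tested. No paired analysis was possible because the results come from no test between groups, the input being used up in the calling of each list. Fragment counts, with medians of 39 and 38 at chromosome 17 summits, limit the precision of each fold.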
